A study of Mus musculus with 8 samples.

Results

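The synaptotagmins described here are the 8 genes of the family that code for calcium-binding members, namely the fast sensors Syt1, Syt2 and Syt9 and the other members Syt3, Syt5, Syt6, Syt7 and Syt10. They were chosen by gene name from the 46078 rows of a table of read counts per gene, and each name had a single row. All 8 passed the filter on low counts, which kept 15996 genes for testing. The counts came from poly(A) RNA of the hippocampus of C57BL/6J mice aged 9 weeks, with 4 libraries from T29-1 Cre mice and 4 from wild-type (WT) mice. T29-1 Cre mice are Cre+/- for the transgene Tg(Camk2a-cre)T29-1Stl, in which Cre recombinase is driven by the Camk2a promoter, active in forebrain excitatory neurons. The labels name no floxed allele in either genotype, and they give neither sex nor whether each library came from a separate animal. The series concerns ectopic expression of Syt2 in a CaMK2a-Cre line, which is why Syt2 and its relatives are compared between these genotypes.

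Synaptotagmins are vesicle and membrane proteins with a membrane-spanning segment and a pair of C2 domains. In the members described here these domains bind calcium, and on binding they act on phospholipids and SNARE proteins to trigger membrane fusion. Syt1, Syt2 and Syt9 are the sensors of fast, synchronous transmitter release, and Syt1 serves most forebrain synapses, whereas Syt2 is known from brainstem and spinal cord synapses and from fast-spiking parvalbumin interneurons. Syt7 has a higher calcium affinity and slower kinetics, and it is tied to asynchronous release and facilitation. Syt3, Syt6 and Syt10 share cysteines near the N terminus that link them into dimers. The names Syt5 and Syt9 were exchanged in part of the literature, so the role written of either depends on the naming used; the grouping here follows the gene symbols of the table.

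The sequences upstream of Syt1 and Syt2 are shown because Syt2 is the gene named by the series, and because Syt1, which shares its role in release, was at least 31.4-fold higher than Syt2 in each of the 8 libraries on the length-scaled level given further on. Each is the 250 bases before an annotated RefSeq start (build GRCm38.p6), written 5′ to 3′ on the strand of the gene, with matches on either strand to the GC box (GGGCGG) or to the CCAAT box in capitals. The Syt1 window printed is chr10:109010976-109011225 on the minus strand, before the upstream start of the 2 listed. The Syt2 windows are chr1:134646362-134646611, before the upstream start, and chr1:134709050-134709299, before a start inside the gene, both on the plus strand.
Syt1: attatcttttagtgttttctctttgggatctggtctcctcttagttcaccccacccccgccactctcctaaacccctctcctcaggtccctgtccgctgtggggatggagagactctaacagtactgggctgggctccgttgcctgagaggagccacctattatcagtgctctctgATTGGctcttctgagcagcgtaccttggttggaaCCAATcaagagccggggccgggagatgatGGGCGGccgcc
Syt2 upstream start: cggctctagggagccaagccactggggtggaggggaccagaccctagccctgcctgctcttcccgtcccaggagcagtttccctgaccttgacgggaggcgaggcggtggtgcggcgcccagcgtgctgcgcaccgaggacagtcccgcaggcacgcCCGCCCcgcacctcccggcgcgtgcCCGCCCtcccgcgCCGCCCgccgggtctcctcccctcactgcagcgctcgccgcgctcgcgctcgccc
Syt2 internal start: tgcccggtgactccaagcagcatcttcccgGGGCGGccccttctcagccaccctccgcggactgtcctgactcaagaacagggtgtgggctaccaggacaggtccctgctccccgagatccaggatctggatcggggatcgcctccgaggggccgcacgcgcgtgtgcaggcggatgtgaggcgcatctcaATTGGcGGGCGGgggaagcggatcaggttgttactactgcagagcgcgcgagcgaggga
The Syt1 window held 2 CCAAT boxes and 1 GC box at a GC content of 56.4%. The window before the other Syt1 start (chr10:109009112-109009361), not printed, held 0 of either at 42.8% GC. The upstream Syt2 window held 3 GC boxes and 0 CCAAT boxes at 76.0% GC, and the internal one 2 GC boxes and 1 CCAAT box at 66.4% GC. Of 32841 windows of the same length and table, 32.7% held a GC box and 33.9% a CCAAT box, and the median GC content was 52.4%. No TATA box (TATAAA), held by 12.4% of all windows, lay in any of these windows. The same was true of the cAMP response element (TGACGTCA), held by 1.55% of all windows. The matches did not overlap each other. They describe the letters of these windows only.

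Syt1 was the highest of the 8 in every library and Syt6 the lowest. Levels of different genes are compared here as CPM per kb, that is, library-scaled read counts (CPM) divided by the length in kilobases of the merged exons of the gene in GENCODE M21. On this scale Syt1 was at 179 ± 11.6 in T29-1 Cre and 170.2 ± 15.05 in WT (SD, n = 4 each). Syt7 followed at 58.4 ± 4.65 in T29-1 Cre and 59.1 ± 2.07 in WT, Syt5 at 52.3 ± 3.39 in T29-1 Cre and 53.0 ± 3.53 in WT, and Syt3 at 24.8 ± 1.19 in T29-1 Cre and 25.0 ± 2.71 CPM per kb in WT. A second set lay at lower levels. In it, Syt2 was at 4.61 ± 0.702 CPM per kb in T29-1 Cre and 4.17 ± 0.388 in WT, and Syt10 at 3.87 ± 0.672 in T29-1 Cre and 3.15 ± 0.909 in WT. Syt9 was at 1.86 ± 0.101 CPM per kb in T29-1 Cre and 1.78 ± 0.231 in WT, and Syt6 at 1.16 ± 0.166 in T29-1 Cre and 1.10 ± 0.128 in WT.

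Most neighbours in this order were separate, meaning that the lowest library of the higher gene was above the highest library of the lower gene. In T29-1 Cre this held for 5 of 7 neighbouring pairs, with Syt7 and Syt5, and Syt2 and Syt10, overlapping. In WT it held for 4 of 7, with Syt10 and Syt9 overlapping as well. The widest step was from Syt3 to Syt2, whose means differed 5.39-fold in T29-1 Cre and 5.99-fold in WT. Syt1 stood 3.06-fold above Syt7 in T29-1 Cre and 2.88-fold in WT. With the longest transcript as the length, Syt5 came above Syt7 in both genotypes, and the other places were kept; Syt9 and Syt6 then overlapped in T29-1 Cre, and in WT only Syt10 and Syt9 did. These levels depend on which exons the authors counted, which no source at hand states: the merged exons of Syt1 span 8338 bases and its longest transcript 4820.

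**Figure D1:**
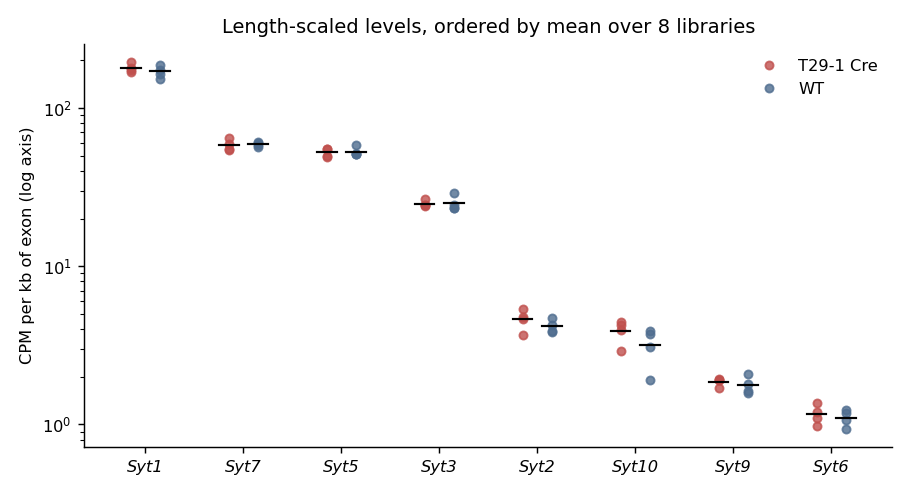
Level of each member in each library, in CPM per kb of exon on a log axis, with T29-1 Cre points left of WT points and a bar at the mean of 4 libraries. Syt1, Syt7, Syt5 and Syt3 lie above 23 CPM per kb in every library, and Syt2, Syt10, Syt9 and Syt6 below 5.35.

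On average over the libraries of each genotype, Syt1 made up more than the other members together; in WT replicate 4 it made up 49.8%. The 3 fast sensors made up 56.8 ± 2.24% of the summed CPM per kb of the 8 genes in T29-1 Cre and 55.4 ± 2.67% in WT (SD, n = 4 each). Syt1 alone held 54.8 ± 2.44% in T29-1 Cre and 53.5 ± 2.65% in WT. Syt2 held 1.42 ± 0.250% of the 8 in T29-1 Cre and 1.32 ± 0.161% in WT. Syt9 held 0.570% in T29-1 Cre and 0.558% in WT, and Syt5 16.1% in T29-1 Cre and 16.7% in WT. The names Syt5 and Syt9 were exchanged in part of the literature, so shares of and within the fast sensors depend on the naming. Within the fast sensors, Syt2 made up 3.05, 2.48, 2.68 and 1.83% in T29-1 Cre replicates 1 to 4, against 2.34, 2.74, 1.99 and 2.46% in WT replicates 1 to 4. The T29-1 Cre libraries thus held both the highest and the lowest share of Syt2, with the WT libraries between. Syt1 exceeded Syt2 by 31.4-fold to 53.1-fold in the T29-1 Cre libraries and by 35.2-fold to 48.8-fold in the WT libraries.

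None of the 8 genes differed between the genotypes past the threshold. edgeR's quasi-likelihood test with Benjamini-Hochberg adjustment over all 15996 genes called 0 members at an adjusted p under 0.05, where 0.00625% of all genes were called, a single gene that is not a member. At an unadjusted p under 0.05 there were 0 members, against 2.43% of all genes, and DESeq2 and limma-voom also gave 0 at either threshold. The adjusted p was 0.998 for each member. The libraries of the genotypes overlapped for all 8, as they did for all but 1.81% of the genes tested. A value above 0 was found for 5 members and below 0 for 3, against 49.7% above 0 over all genes, and the median log2 fold change was 0.06 for the members and -0.00 for all genes. The 95% interval lay within 1.5-fold in either direction for Syt1, Syt2, Syt9, Syt3, Syt5, Syt6 and Syt7, as for 82.7% of all genes, and reached beyond it for Syt10.

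**Figure D2:**
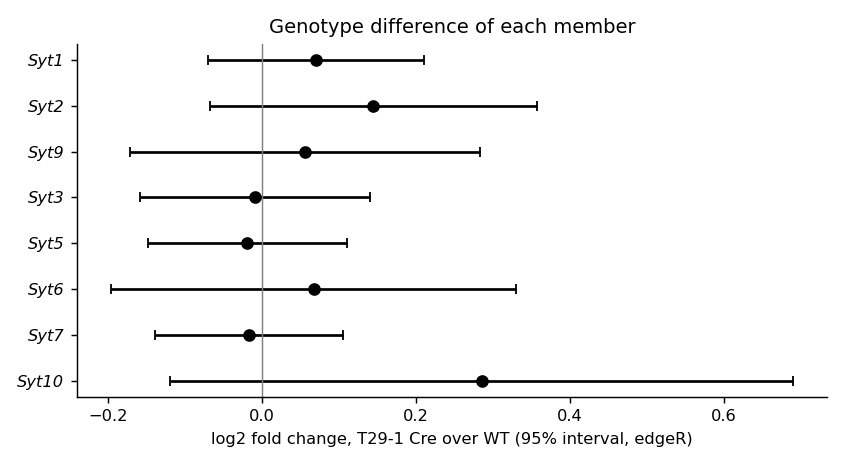
Log2 fold change of each member, T29-1 Cre over WT, from edgeR with its 95% interval, with 4 libraries per genotype. All 8 intervals include 0, and the widest, that of Syt10, runs from -0.12 to 0.69.

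Syt1, the main sensor of synchronous release in the forebrain (GRCm38, chr10:108497650-109010982, minus strand), was the most abundant member. It was at 1400.5, 1499, 1439.7 and 1622 CPM in T29-1 Cre replicates 1 to 4 and at 1456, 1377, 1570.1 and 1273 CPM in WT replicates 1 to 4. A single T29-1 Cre library, replicate 4, lay above every WT library, and WT replicate 4 was the lowest of all. The log2 fold change was 0.07 (SE 0.0654), and its 95% interval ran from a fold of 0.953 to 1.16. An exact permutation test on log2 CPM (two-sided, all 70 assignments of libraries, smallest possible p 0.0286) gave p = 0.400. These values rest on 30472 to 48105 reads per library.

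Syt2, the fast sensor the series is about (chr1:134646677-134762593, plus strand), was at 40.8, 35.2, 36.7 and 28.0 CPM in T29-1 Cre replicates 1 to 4 and at 32.3, 35.9, 29.5 and 29.8 CPM in WT replicates 1 to 4. T29-1 Cre replicates 1 and 3 were above every WT library, replicate 2 was within the WT range and replicate 4 was below it. The edgeR log2 fold change was 0.14 (SE 0.0989, 95% interval -0.07 to 0.36), and p was 0.371 in the exact permutation test. As a fold, the interval ran from 0.954 to 1.28. T29-1 Cre replicate 4 had the lowest value of all 8 libraries. Without it the log2 fold change was 0.24 (SE 0.0792), with an edgeR unadjusted p of 0.00981 and an adjusted p of 0.999. In that fit 456 of 16143 genes had an unadjusted p under 0.05. Leaving out the lowest T29-1 Cre library raises the value by construction, so this p is no support for a difference. Without T29-1 Cre replicate 1, the highest library, the log2 fold change of Syt2 was 0.06, and that fall is likewise by construction. In the authors' deposited table Syt2 had a log2 fold change of 0.14 at an unadjusted p of 0.156.

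Markers of thalamic neurons and of fast-spiking interneurons were set beside Syt2. Slc17a6, which codes for a vesicular glutamate transporter of thalamic and other subcortical neurons, was at 30.4, 21.3, 22.3 and 10.8 CPM in T29-1 Cre replicates 1 to 4 and at 18.1, 20.2, 16.1 and 17.4 CPM in WT replicates 1 to 4. Within each genotype, Syt2 and Slc17a6, which was singled out after its values were seen, ranked the 4 libraries in the same order. How many of all genes rank them so was not counted, and Coro6, named further on, does as well. The other thalamic markers did not share that order. Prkcd was at 17.8, 19.7, 23.3 and 25.7 CPM in T29-1 Cre replicates 1 to 4, lowest where Syt2 was highest and highest where it was lowest, and at 23.8, 18.4, 19.6 and 19.7 CPM in WT replicates 1 to 4. Tcf7l2 was at 4.99, 4.82, 4.33 and 4.80 CPM in T29-1 Cre replicates 1 to 4, highest where Syt2 was highest. In WT replicates 1 to 4 it was at 4.27, 4.15, 4.21 and 4.97 CPM, lowest where Syt2 was highest. Lef1 was highest in T29-1 Cre replicate 1 (5.10 CPM), as Syt2 was, and in WT replicate 1 (4.60 CPM), unlike Syt2. Plekhg1 was highest in T29-1 Cre replicate 3 and, like Syt2, in WT replicate 2 (25.3 CPM). Rgs16 was highest in T29-1 Cre replicate 3 and WT replicate 4. All 6 genes of the thalamic marker list were tested, 6 had a higher value in T29-1 Cre, and none of them was called. Their summed level was 73.0 to 86.4 CPM in T29-1 Cre and 68.1 to 80.1 CPM in WT. Pvalb, a marker of fast-spiking interneurons, was at 22.7, 20.7, 19.7 and 18.7 CPM in T29-1 Cre replicates 1 to 4 and at 20.5, 20.4, 18.9 and 24.4 CPM in WT replicates 1 to 4. In T29-1 Cre, Pvalb like Syt2 was highest in replicate 1 and lowest in replicate 4, and in WT its highest library, replicate 4, was below the WT mean for Syt2. The rest of the fast-spiking interneuron list did not share that order. Gad1, Gad2, Slc32a1, Kcnc1, Kcnc2 and Lhx6 were highest in T29-1 Cre replicate 4, where Syt2 was lowest, and so was the list's sum. Kcns3, Tac1 and Cox6a2 were highest in T29-1 Cre replicate 1 but not lowest in replicate 4. Erbb4 was highest in T29-1 Cre replicate 2. The 11 genes listed for fast-spiking interneurons were all tested and none was called, against 0.00625% of all genes. They summed to 1055 to 1165 CPM in T29-1 Cre and 1003 to 1093 CPM in WT. Gad1, Gad2 and Slc32a1 among them are genes of GABA neurons in general. Gad1 alone was at 329 CPM on average in T29-1 Cre and 321 in WT, so the sum is not specific to fast-spiking cells. The part of either cell type in the Syt2 values was not tested. In bulk tissue, fewer cells of a type and less RNA per cell cannot be told apart.

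**Figure D3:**
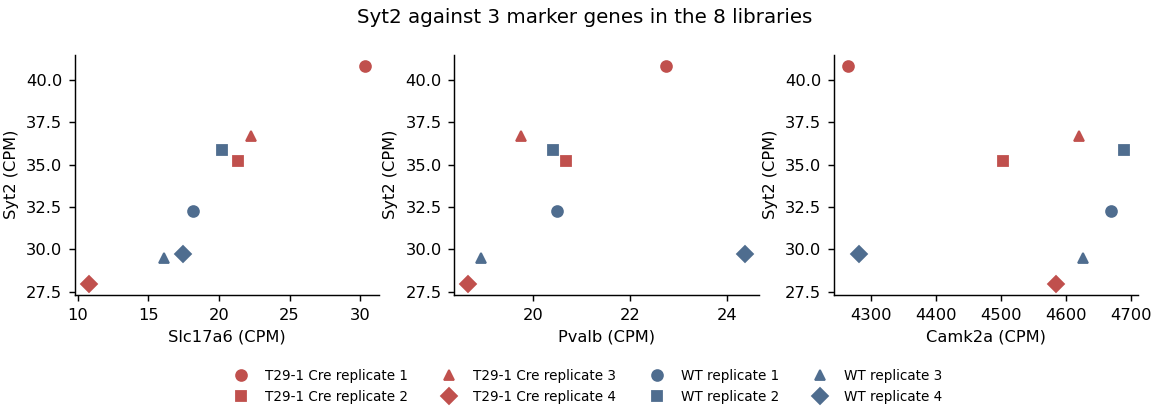
Syt2 in CPM against Slc17a6, Pvalb and Camk2a in CPM in each of the 8 libraries, with red for T29-1 Cre, blue for WT and a symbol for each replicate number; the axes do not start at 0. T29-1 Cre replicate 1 is highest and replicate 4 lowest among the T29-1 Cre libraries for Syt2, Slc17a6 and Pvalb. Other genes of the thalamic and fast-spiking interneuron lists, not plotted, did not share that order.

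Syt9, grouped here as the third fast sensor (chr7:107370728-107548656, plus strand), was the least abundant of the trio. It was at 7.55, 7.65, 6.79 and 7.54 CPM in T29-1 Cre replicates 1 to 4 and at 7.18, 6.29, 8.32 and 6.48 CPM in WT replicates 1 to 4. All 4 T29-1 Cre libraries lay within the range of the WT libraries. The log2 fold change was 0.06 (SE 0.106, 95% interval -0.17 to 0.28). With 155 to 255 reads per library, the interval as a fold ran from 0.888 to 1.22. In length-scaled level, Syt2 exceeded Syt9 by 1.93-fold to 2.82-fold in the T29-1 Cre libraries and by 1.84-fold to 2.97-fold in the WT libraries.

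Among the other members, Syt7 had the highest level. It spans chr19:10389090-10453180 on the plus strand, and GENCODE M21 lists 15 transcripts for it, the most of any of the 8. It was at 408, 443, 484 and 414 CPM in T29-1 Cre replicates 1 to 4 and at 451, 423, 458 and 438 CPM in WT replicates 1 to 4. The T29-1 Cre libraries held both the highest and the lowest values. The log2 fold change was -0.02 (SE 0.057), and the 95% interval, from a fold of 0.908 to 1.08, was the narrowest of the 8. Of its exon bases, 5.13% are shared with Gm26859, a lincRNA on the opposite strand. The sources used here do not give the strand setting of the counting, so reads of that overlap are uncertain.

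Syt3 and Syt5 both lie on chromosome 7, at chr7:44384102-44400187 (plus strand) and chr7:4539765-4547541 (minus strand). Syt3 is known in hippocampal neurons for its part in the calcium-dependent removal of AMPA receptors from the postsynaptic surface. It was at 74.9, 76.0, 75.6 and 82.9 CPM in T29-1 Cre replicates 1 to 4 and at 72.5, 72.6, 76.1 and 90.3 CPM in WT replicates 1 to 4. The T29-1 Cre libraries lay within the WT range, whose top was WT replicate 4. The log2 fold change was -0.01 (SE 0.0693), and it was 0.07 (SE 0.0448, edgeR adjusted p of 1.00) without that library. Syt5 was at 132, 118, 131 and 117 CPM in T29-1 Cre replicates 1 to 4 and at 122, 121, 122 and 139 CPM in WT replicates 1 to 4. WT replicate 4 was again the highest library, and the lowest values were in T29-1 Cre. The log2 fold change of Syt5 was -0.02 (SE 0.06, 95% interval -0.15 to 0.11).

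Syt10 and Syt6 were the least abundant of the other members. Syt10 (chr15:89782393-89841860, minus strand) is known for the calcium-triggered secretion of insulin-like growth factor 1 by olfactory bulb neurons. T29-1 Cre replicates 1 to 4 held 207, 169, 225 and 143 reads of it and WT replicates 1 to 4 held 184, 140, 221 and 84. The scaled values were 7.82, 7.27, 8.12 and 5.36 CPM in T29-1 Cre and 6.88, 5.65, 7.21 and 3.51 CPM in WT. T29-1 Cre replicates 1, 2 and 3 were above every WT library, and T29-1 Cre replicate 4 was within the WT range. Syt10 had the largest log2 fold change of the 8, at 0.29 (SE 0.188, 95% interval -0.12 to 0.69), and p was 0.229 in the exact permutation test. Without WT replicate 4, which had the fewest reads of it, the log2 fold change was 0.11, and without WT replicate 3, the highest WT library, it was 0.41. Without T29-1 Cre replicate 4 it was 0.40 (edgeR, unadjusted p = 0.049, adjusted p = 0.999). In that fit 456 of 16143 genes had an unadjusted p under 0.05. Leaving out the lowest T29-1 Cre library or the highest WT library raises the value of Syt10 by construction, and leaving out the lowest WT library lowers it. In the authors' deposited table its log2 fold change was 0.29 at an unadjusted p of 0.137.

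Syt6 (chr3:103575231-103645569, plus strand) is known for its part in the acrosome reaction of sperm. It was at 6.42, 7.96, 5.67 and 7.01 CPM in T29-1 Cre replicates 1 to 4 and at 6.21, 6.86, 7.15 and 5.47 CPM in WT replicates 1 to 4, so that the genotypes overlapped over most of their range. The log2 fold change was 0.07 (SE 0.122, 95% interval -0.20 to 0.33), and it rests on 131 to 219 reads per library. The pseudogene-named Atg4a-ps on the opposite strand shares 8.67% of its exon bases.

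**Figure D4:**
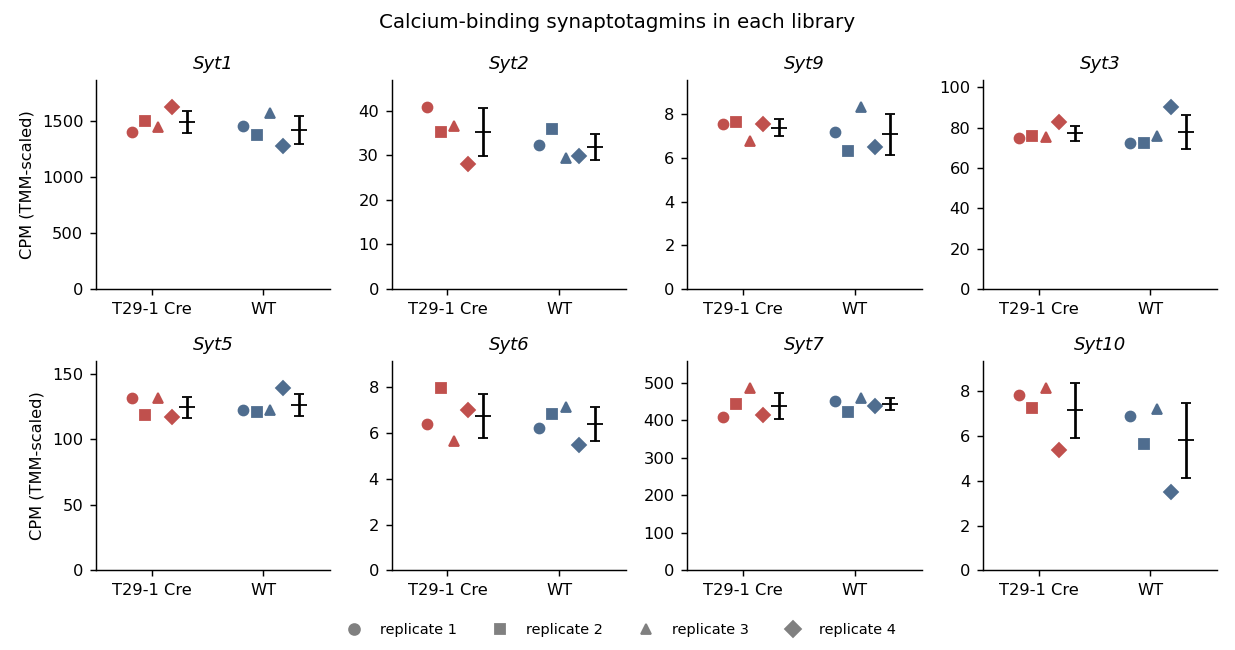
CPM of each member in each library, T29-1 Cre left of WT, with a symbol for each replicate number and, beside the points, the mean with its SD over 4 libraries. The genotypes overlap in every panel; Syt10 has the widest spread, from 3.51 to 8.12 CPM.

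The members differed in how much they varied within a genotype. The pooled SD of log2 CPM within a genotype was 0.0875 for Syt7, 0.0932 for Syt5, 0.111 for Syt1 and 0.116 for Syt3, against a median of 0.1199 over all genes tested. It was 0.140 for Syt9, 0.187 for both Syt2 and Syt6, and 0.381 for Syt10. The 4 members of lower level thus all varied more than the 4 of higher level, and Syt2 had 712 to 1081 reads per library but varied as much as Syt6. Over all genes, WT replicate 4 lay far from the rest, with a score of -33.4 on the first principal component against -0.69 to 8.74. It held the largest deviation from the WT mean, in either direction, for Syt10, Syt6, Syt1, Syt5 and Syt3. On the log2 scale these deviations were -0.66 for Syt10, -0.22 for Syt6, -0.15 for Syt1, 0.14 for Syt5 and 0.22 for Syt3. Total counts ran from 23358289 to 27543742 in T29-1 Cre and from 23694841 to 30882631 in WT.

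**Figure D5:**
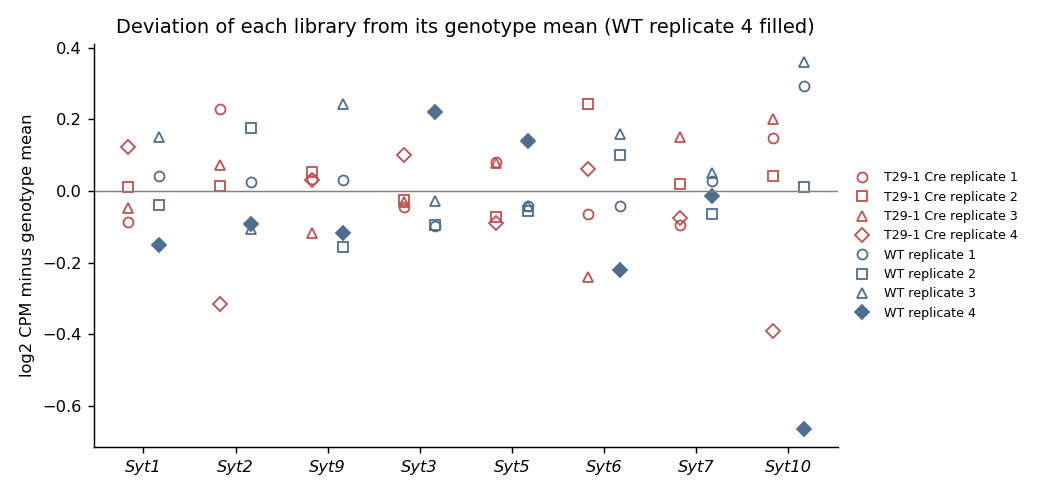
Log2 CPM of each member in each library minus the mean of its genotype, T29-1 Cre in red left of WT in blue, with WT replicate 4 filled. The filled points are the furthest from 0 among the WT libraries for Syt1, Syt3, Syt5, Syt6 and Syt10, and Syt10 has the widest range.

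The genes whose values followed each member most closely across libraries were ranked by Pearson's r of log2 CPM after the mean of each genotype was subtracted, over 8 libraries and 11502 genes whose mean CPM reached 5. For Syt2 they were Arhgef15 (r = 0.986, Spearman's rho = 0.929) and Coro6 (r = 0.986, rho = 1.00), and r stayed at 0.958 and 0.954 without the 2 libraries furthest from the median of Syt2. For Syt1 they were Pak3 (r = 0.992) and Pde11a (r = 0.987), and for Syt9 Tbc1d23 (r = 0.955) and Epb4.1l4a (r = 0.943). Without the 2 libraries furthest from the median of the member, r was 0.792 for Epb4.1l4a and 0.862 for Xndc1, which followed Syt7, and at least 0.901 for the other likest genes. Those of Syt3 were Upf3b and Agt, those of Syt5 Ten1 and Fam57b, those of Syt6 Rab14 and Jakmip3, those of Syt7 Xndc1 and Nbeal2, and those of Syt10 Btaf1 and Kdm5d, with r between 0.957 and 0.992. An r of at least 0.9 was reached by 49 genes for Syt2, 197 for Syt1, 255 for Syt3 and 4 for Syt9. All these values come from the same 8 libraries and share their depth and the deviation of WT replicate 4, and they are the highest of many, so they describe these libraries.

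The proteins that synaptotagmins act on, and their relatives, showed no called gene either. Over all genes 0.00625% were called, so 0 in lists this short says little about them. Of 21 genes of the release machinery (SNAREs, Munc18, complexins, Munc13, RIM and SV2 proteins among them), 16 had a higher and 5 a lower value in T29-1 Cre, edgeR called 0, and the median log2 fold change was 0.01. Those with the smallest p were Rims2, an active zone scaffold, at 0.17 (SE 0.0895), and Unc13c, a vesicle priming factor, at 0.28 (SE 0.147). Over the fits without 1 library, Rims2 ran from 0.07 (without WT replicate 4) to 0.25 (without WT replicate 3). Unc13c ran from 0.11 (without T29-1 Cre replicate 3) to 0.39 (without T29-1 Cre replicate 4). Of 10 presynaptic calcium channel genes, 8 had a higher value, 0 were called and the median was 0.05. Cacnb4, an auxiliary channel subunit, was at 174 ± 10.8 CPM in T29-1 Cre and 154 ± 19.3 CPM in WT (SD, n = 4 each), with a fitted log2 difference of 0.18 (SE 0.0798; edgeR adjusted p = 0.998), and Cacna2d2 had a value of 0.10 (SE 0.0638). Without WT replicate 4, Cacnb4 was at 0.09 and Cacna2d2 at 0.06. At the other end, Cacnb4 was at 0.23 without WT replicate 3 and Cacna2d2 at 0.14 without WT replicate 2. Of 11 other C2-domain proteins of membrane traffic, 9 had a higher value, with 0 called and a median of 0.06; Cadps2, a priming factor of dense-core vesicles, was at 0.10 (SE 0.06, log2) and Doc2b, a calcium sensor of spontaneous release, at -0.09 (SE 0.0597). Without WT replicate 4, Cadps2 was at 0.035, and without T29-1 Cre replicate 4, Doc2b was at -0.057. At the other end, Cadps2 was at 0.12 without WT replicate 3 and Doc2b at -0.14 without T29-1 Cre replicate 3. Among all genes, 7955 were above 0 and 8041 below it.

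The other 9 synaptotagmins of the table were set beside the 8. Syt8 had a single read over all libraries and was not tested. Of the 8 that were, 4 had a higher and 4 a lower value in T29-1 Cre, with a median log2 fold change of 0.01. Among them 0 were called, against 0.00625% of all genes. Syt15 had the highest value, 0.46 (SE 0.252), at 0.763 ± 0.157 CPM in T29-1 Cre and 0.552 ± 0.082 CPM in WT (SD, n = 4 each). Syt4 was at 0.05 (SE 0.0483), or 0.025 without WT replicate 1 and 0.084 without WT replicate 3. Camk2a, whose promoter drives the transgene, was at 4264, 4503, 4620.0 and 4585 CPM in T29-1 Cre replicates 1 to 4 and at 4669, 4689.7, 4626 and 4283 CPM in WT replicates 1 to 4. Its 2 lowest libraries, T29-1 Cre replicate 1 and WT replicate 4, were at 40.8 and 29.8 CPM for Syt2. The 10 markers of hippocampal principal neurons, Camk2a included, summed to 7007 to 7530.5 CPM in T29-1 Cre and 7279 to 7667 CPM in WT, with 2 at a higher and 8 at a lower value and 0 called.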

How the data were processed

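Per the labels' protocols, libraries were made with a directional kit from poly(A) RNA isolated from 500 ng of total RNA and sequenced as paired 150 bp reads on 1 lane. The submitters' processing notes name the build GRCm38 and the tools featureCounts, STAR 2.6.1d and edgeR 3.11. The authors deposited unscaled read counts per gene name, and a table of their comparison with log2 fold changes, mean log2 CPM and unadjusted p-values.

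Genes were kept by edgeR's filterByExpr (minimum count 10, minimum total 15), libraries were scaled by TMM, and the genotypes were compared in R 4.3.3 with edgeR 4.0.16 (glmQLFit, glmQLFTest, no covariate), with Benjamini-Hochberg adjustment over all genes tested and a call at an adjusted p under 0.05. Each SE was taken as |log2 fold change| over √F, and intervals are at 95%. Log2 CPM uses a prior count of 2. Of the tested names, 95.2% matched GENCODE M21 on GRCm38. Promoters come from the RefSeq table, which has entries for 6 of the 8 genes. Alternatives were DESeq2 1.42.0, limma-voom (limma 3.58.1), other scalings and filters, a replicate block, summed rows, another gene length, and each library left out. Fits were tested on simulated data; the first pass criterion, set on the total recovered, was missed and was replaced after that run by one on slope, coverage, false calls and well-measured genes, with the fits left as they were.

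The members and lists were chosen with earlier results of these data known. By rule, the genes named are the 8 members, Camk2a, the called genes of each list (if none, the 2 of lowest p), and the 2 likest genes of each member at a mean of at least 5 CPM. Slc17a6 falls under that rule, but setting it beside Syt2, and naming Pvalb, were chosen after the values were seen. Outside the rule, the remaining genes of the thalamic and fast-spiking interneuron lists were also named, to set their values beside those of Syt2. Syt8 and the genes that overlap Syt6 and Syt7 were named as limits. Separate animals are not stated in the labels; p-values therefore cover only the spread of these samples, possibly technical. Libraries within a genotype all differed by more than counting noise (chi-square over its degrees of freedom 3.34 to 19.4). Over all genes, same-numbered libraries did not deviate together, though for Syt10 they did, as given with the limits.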

Additional observations from a re-analysis of the deposited data

Results flagged for a closer look

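In each genotype, the 4 libraries of each member were searched for a value distant from the remaining 3, which gives 16 groups, and 3 of them held one. Chance flags about 1 in 20 independent groups, and these groups share libraries. Syt9 in T29-1 Cre replicate 3 was at 2.78 log2 CPM, below the other T29-1 Cre libraries at 2.93 to 2.95. Syt3 in T29-1 Cre replicate 4 was at 6.37 log2 CPM, above the others at 6.23 to 6.25. Syt5 in WT replicate 4, which was also the most distant library over all genes, was at 7.12 log2 CPM, above the other WT libraries at 6.92 to 6.94.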

How the results depend on the processing

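In all 17 alternatives run for each, 0 members were called, and the smallest adjusted p of any member was 0.892. Syt1, Syt2, Syt9 and Syt10 kept their direction in all of them. Over the 8 fits without one replicate each, the log2 fold change of Syt1 ran from 0.022 to 0.12, of Syt2 from 0.064 to 0.24, of Syt9 from 0.0047 to 0.15 and of Syt10 from 0.11 to 0.41. In these fits Syt3, log2 fold change T29-1 Cre over WT, ran from -0.044 (without T29-1 Cre replicate 4) to 0.070 (without WT replicate 4), Syt5 from -0.047 to 0.030, Syt6 from -0.017 to 0.14 and Syt7 from -0.070 to 0.015, so that each of these 4 changed sign. In the other 9 fits no member changed sign. Over all genes, 2 rather than 1 were called with no filter on low counts and with the replicate block, the added gene being Ttr, a choroid plexus marker; the cause was not tested. With the block, Syt2 and Syt10 stayed uncalled, Syt10 at a log2 fold change of 0.31 (SE 0.109, edgeR unadjusted p = 0.0161, adjusted p = 0.997). The labels state no more than a shared number for same-numbered libraries. Over all genes, the correlations of their deviations were -0.07, 0.05, 0.02 and -0.03. For Syt10, however, same-numbered libraries deviated in the same direction. Its deviations were 0.15, 0.04, 0.20 and -0.39 in T29-1 Cre replicates 1 to 4. In WT replicates 1 to 4 they were 0.29, 0.01, 0.36 and -0.66. Whether the numbers mark a shared batch was not tested. With the longest transcript as the gene length, the share of Syt1 was 63.3% in T29-1 Cre and 62.0% in WT, and that of Syt2 was 1.05% in T29-1 Cre and 0.98% in WT. Reads of 84 to 255 per library limit the precision for Syt6, Syt9 and Syt10.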

Other observations

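Marker lists of other cell types held 0 genes called by edgeR, against 0.00625% of all genes. Ttr, however, was called with the replicate block and with no filter on low counts. The 6 neocortical markers summed to 139 to 152 CPM in T29-1 Cre and 137 to 138 CPM in WT, without overlap between the genotypes. This held for 1 of 14 such sums, was not tested, and compares with 1.81% of all genes. Of the 6, 5 were at a higher value, with Cux2 at a log2 fold change of 0.15 (SE 0.0701, edgeR adjusted p = 0.998) and Fezf2 at 0.09 (SE 0.0503). The 3 tested of 6 choroid plexus markers summed to 24.4 to 50.7 CPM in T29-1 Cre and 21.6 to 26.6 CPM in WT, with Ttr at a log2 fold change of 2.39 (SE 0.633) and Clic6 at 0.89 (SE 0.394). All 6 oligodendrocyte markers had a lower value, with Mog at -0.14 (SE 0.0817) and Mal at -0.14 (SE 0.0956). Of the other lists, the smallest p belonged to Slc17a6 at 0.24 (SE 0.210) and Tcf7l2 at 0.11 (SE 0.111) for the thalamus, and Drd1 at 0.35 (SE 0.151) and Rgs9 at -0.13 (SE 0.0836) for the striatum. They were Erbb4 at 0.16 (SE 0.0863) and Gad2 at 0.11 (SE 0.0781) for the fast-spiking interneuron list. For principal neurons they were Dsp at -0.11 (SE 0.0982) and Fibcd1 at -0.05 (SE 0.046). They were S100b at -0.12 (SE 0.0701) and Aqp4 at 0.06 (SE 0.0795) for astrocytes, Aif1 at -0.24 (SE 0.157) and P2ry12 at -0.07 (SE 0.0644) for microglia, and Flt1 at 0.13 (SE 0.0926) and Slco1a4 at 0.07 (SE 0.111) for endothelial cells. Without WT replicate 4, Erbb4 was at 0.066, Gad2 at 0.032, Fibcd1 at -0.020, S100b at -0.037, Aqp4 at -0.025, Flt1 at 0.056, Slco1a4 at -0.019 and Tcf7l2 at 0.17. Without T29-1 Cre replicate 1, Slc17a6 was at 0.012, and without T29-1 Cre replicate 4 Dsp was at -0.015. Without T29-1 Cre replicate 3, Ttr was at 1.48 and Clic6 at 0.52. Without WT replicate 1, Mog was at -0.056 and Mal at -0.0069. Most of the fits given here are those that shrink the difference, which they do by construction. Other left-out fits enlarged it. Slc17a6 was at 0.46 without T29-1 Cre replicate 4 and Dsp at -0.21 without T29-1 Cre replicate 3. Without WT replicate 3, Ttr was at 3.10, Clic6 at 1.32, Mog at -0.20, Mal at -0.20 and Erbb4 at 0.21.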
